A study of Caenorhabditis elegans with 8 samples.

Results

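The oligonucleotides described here are the excised reads of 19, 20, 21, 22, 23 and 24 nt in 8 XR-seq libraries of *Caenorhabditis elegans*, grouped by their length on the genome. A read was a member when its mapping quality was over 20 and it lay on 1 of the 6 nuclear chromosomes, which held for 36212718 of the 38761018 distinct reads in the files. Over the 8 libraries the classes held 5876221 reads of 19 nt, 6076111 of 20 nt, 6133912 of 21 nt, 6111946 of 22 nt, 6059872 of 23 nt and 5954656 of 24 nt. Each class thus held a similar number of reads, and the files held no read outside this range of lengths. The study's methods kept reads of 19 to 24 nt only, so every share and mean length below describes this window and not the full range of excised lengths.

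XR-seq reads out the damaged single-stranded fragments released by nucleotide excision repair, and here an antibody selected fragments that carry cyclobutane pyrimidine dimers (CPDs). The 8 libraries form 4 groups of 2 replicates. L1 larvae of the wild type (WT, N2 ancestral) and of csb-1 (strain RB1801) were collected 1 h after UVB, and unirradiated WT L1 larvae (WT no UV) were the control. The xpc-1 worms (strain TG2226) were a mixed-stage population collected 1 h after UVB, so genotype and stage cannot be told apart in that group. All libraries came from whole animals. The sources used here do not say whether replicates were separate cultures, so each test measures only the spread between these libraries.

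CPDs join neighbouring pyrimidines of one strand, most often 2 thymines, and block replication and transcription. In nucleotide excision repair the damaged strand is cut on both sides of the lesion, and in eukaryotes the cut on the 3′ side lies closer to the lesion than the cut on the 5′ side. XPC recognises damage anywhere in the genome (global repair), whereas CSB acts where RNA polymerase II stalls at damage on the template strand (transcription-coupled repair). csb-1 worms therefore keep global repair and xpc-1 worms keep transcription-coupled repair.

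The 6 lengths can be seen at a single site, which is printed because its reads share one 3′ end and differ at the 5′ end. The reference sequence under the reads is given 5′ to 3′, with adjacent thymines (TT) in capitals. The site was chosen among 3′ ends whose 24-nt read holds 1 TT, 6 nt from that end, as the one found in the most combinations of length and irradiated library.
19 nt: tccagacaccaTTacgagt
20 nt: ctccagacaccaTTacgagt
21 nt: cctccagacaccaTTacgagt
22 nt: acctccagacaccaTTacgagt
23 nt: cacctccagacaccaTTacgagt
24 nt: acacctccagacaccaTTacgagt

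The longest of these reads covers chrII:10865735-10865758 on the plus strand (WBcel235, the assembly that ce11 names). It lies in coding sequence of gmps-1 (WBGene00010912), a protein-coding gene annotated on the minus strand, so the reads come from its template strand. The site was found in 34 of the 36 combinations of length and irradiated library, a number that 2 ends reached, and of these it had the more copies. Summed over the 6 irradiated libraries and over the distinct reads at each position, the number of sequenced copies was 181 for 19 nt, 135 for 20 nt, 243 for 21 nt, 193 for 22 nt, 166 for 23 nt and 117 for 24 nt. The number of bases before the TT was 11 in the shortest read and 16 in the longest, while 6 bases followed it in every read.

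The share of reads in each length class differed between libraries. Reads of 24 nt made up 18.1% and 19.7% of the kept reads in the WT replicates, 16.4% and 15.7% for csb-1, 13.8% and 9.46% in mixed-stage xpc-1, and 11.9% and 13.1% in WT no UV. Reads of 19 nt made up 14.5% and 13.1% for WT, 16.3% and 17.6% for csb-1, 17.2% and 22.5% in mixed-stage xpc-1, and 19.02% and 17.4% in WT no UV. The share was higher with each added base in both WT libraries, and 24 nt, the upper limit of the window, was the most frequent of the 6 lengths there. In csb-1 the classes were nearly even in replicate 1, with the highest share at 21 nt (17.0%), and were lower with each added base in replicate 2. For mixed-stage xpc-1 the highest share lay at 21 nt in replicate 1 (18.2%), and replicate 2 had its highest at 19 nt. The mean length was 21.63 and 21.74 nt for WT, 21.50 and 21.43 nt for csb-1, 21.37 and 21.01 nt in mixed-stage xpc-1, and 21.28 and 21.37 nt in WT no UV.

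Within the window of 19 to 24 nt, WT reads were longer than csb-1 reads by 0.223 nt on average (21.68 ± 0.0770 against 21.46 ± 0.0496 nt, SD, n = 2 libraries each), and the 2 groups did not overlap. WT minus csb-1 was -3.12 percentage points for the share of 19-nt reads and 2.85 percentage points for 24-nt reads. With 2 libraries against 2, the exact two-sided permutation test gave p = 0.333, the smallest p this design allows, and 0.481 after Benjamini-Hochberg adjustment over 13 comparisons of WT with csb-1. The difference was therefore larger than the spread between replicates but cannot pass a threshold of 0.05 in this design.

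The number of kept reads sets the precision of these shares. WT replicate 1 held 8198054 kept reads, and its share of 19-nt reads had an exact Clopper-Pearson interval at 95% of 14.49 to 14.54%. WT no UV replicate 1 held 10260 kept reads, and its interval at 19 nt was 18.3 to 19.8%. The other libraries held 3252700 (WT replicate 2), 6628507 and 13203914 (csb-1), 4762651 and 143716 (mixed-stage xpc-1) and 12916 (WT no UV replicate 2). These intervals cover counting error within a library only, not the spread between libraries. PCR copies were not marked by molecular identifiers. At 19 nt the replicates of each irradiated group lay further apart than their intervals.

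Adjacent thymines lay most often at one distance from the 3′ end at nearly every read length. Of the 36 combinations of length and irradiated library, TT was most often exactly 6 nt from the 3′ end in 34. The 2 exceptions were the 19-nt reads of both csb-1 libraries, in which TT was most frequent 5 nt from the end (50.8% of reads against 48.2% at 6 nt in replicate 1, and 47.99% against 47.94% in replicate 2). In 19-nt reads TT stood at 6 nt in 48.5% and 50.3% of reads in WT, 48.2% and 47.9% for csb-1, and 45.1% and 44.5% in mixed-stage xpc-1. In 24-nt reads the corresponding values were 51.8% and 53.2%, 52.4% and 50.3%, and 47.7% and 45.5%. Every irradiated value was far above the share of TT among all nuclear dinucleotides, 13.5%, and above the WT no UV libraries at 19 nt (24.3% and 20.9%) and 24 nt (26.8% and 18.6%).

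The share with TT at 6 nt was higher in 24-nt than in 19-nt reads in 6 of 6 irradiated libraries, by 3.31 and 2.88 percentage points in WT, 4.21 and 2.37 for csb-1, and 2.59 and 1.01 in mixed-stage xpc-1. The mean difference was 2.73 ± 1.07 percentage points (SD, n = 6), with p = 0.03125 in an exact two-sided sign-flip permutation test, the smallest p that 6 libraries allow. After adjustment over the 6 results tested across lengths it was 0.0625, above the threshold of 0.05. In WT no UV the difference was +2.43 and -2.28 percentage points, so its replicates moved in opposite directions. Among reads with exactly 1 TT the mean difference was 1.09 percentage points, in 5 of 6 libraries, with mixed-stage xpc-1 replicate 1 near 0 (31.5% at 19 nt, 31.4% at 24 nt). The share was higher with each added base only in WT replicate 1. It was lower at 23 than at 22 nt in WT replicate 2 (52.5% against 53.2%) and both csb-1 libraries (51.4% against 51.6%, and 49.2% against 49.4%), and lowest at 20 nt in both mixed-stage xpc-1 libraries (44.7% and 43.1%). A difference of a few percentage points stood beside a change in mapping quality with length: reads of the highest quality, 42, were 79.3% of kept 19-nt reads and 93.7% of 24-nt reads in WT replicate 1. Among quality-42 reads alone the mean difference was 3.58 percentage points.

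The distances next to 6 nt were also frequent. TT stood at 5, 6 or 7 nt from the 3′ end in 81.2 to 86.4% of reads in the 4 irradiated L1 libraries, over all 6 lengths. The range was 73.1 to 78.8% in mixed-stage xpc-1 and 33.0 to 45.7% in WT no UV. The profile was not symmetric: in 24-nt reads of WT replicate 1, TT stood at 4 nt in 23.6%, at 5 nt in 47.2%, at 6 nt in 51.8%, at 7 nt in 31.3% and at 8 nt in 19.3%. At least 1 TT anywhere in the read was found in 96.8 to 99.6% of reads in the irradiated classes and in 78.5 to 84.7% in WT no UV. All nuclear windows of the same lengths held a TT in 80.5% (19 nt) to 86.7% (24 nt), and every irradiated class lay above that range.

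Reads with exactly 1 TT show where the added bases of a longer read lie. In all 6 irradiated libraries the median number of bases before the TT was 11, 12, 13, 14, 15 and 16 for reads of 19 to 24 nt, and the median number after it was 6 at every length. In WT replicate 1 the mean number of bases before the TT went from 11.2 at 19 nt to 15.6 at 24 nt, and the mean number after it from 5.81 to 6.42. In mixed-stage xpc-1 replicate 2 the corresponding means went from 10.97 to 14.7 before the TT and from 6.03 to 7.26 after it. Most of each added base thus lay on the 5′ side, and a smaller part on the 3′ side.

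Expressed as a slope over the 6 lengths, each added nucleotide put 0.875 and 0.875 nt on the 5′ side of the TT in WT, 0.898 and 0.895 nt for csb-1, and 0.832 and 0.774 nt in mixed-stage xpc-1. Placement unrelated to the TT gives 0.5, all nuclear windows gave 0.501, and WT no UV gave 0.486 and 0.509. The mean of the irradiated libraries was 0.858 ± 0.0475 nt per nt (SD, n = 6), above 0.5 in 6 of 6. The exact two-sided sign-flip permutation test gave p = 0.03125, the smallest possible, and 0.0625 after adjustment. The csb-1 slopes lay above the WT slopes without overlap (WT minus csb-1, -0.0214 nt per nt), with an exact two-sided permutation p of 0.333 and 0.481 after adjustment.

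Single-TT reads were the minority. They made up 19.8% of 19-nt and 12.6% of 24-nt reads in WT replicate 1, and 12.4 to 22.2% over all irradiated classes. TT stood 5 to 7 nt from the 3′ end in 72.7 to 78.8% of them in irradiated L1 libraries, in 66.5 to 70.0% in mixed-stage xpc-1 and in 23.97 to 40.3% in WT no UV.

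Near the 5′ end a second feature moved with that end. TT was less frequent after 4 bases than after 3 or 5 bases in 33 of the 36 irradiated combinations of length and library, and the 3 exceptions were the 20-nt, 23-nt and 24-nt reads of WT replicate 2. In 19-nt reads of mixed-stage xpc-1 replicate 1, TT stood after 3, 4 and 5 bases in 10.8%, 8.003% and 9.56% of reads. In 24-nt reads of the same library the values were 11.03%, 9.04% and 10.02%. In 24-nt reads of WT replicate 1 they were 11.4%, 10.9% and 13.1%. The dip could be very slight: 20-nt reads of csb-1 replicate 1 had 9.543% after 4 bases and 9.549% after 5. The dip was also present in 11 of 12 WT no UV combinations, so it was not particular to irradiated worms. It is given as a description, with no test.

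The ends of the reads had a base preference that was similar at both extremes of length. G was the first base of 30.6 to 40.0% of reads at 19 nt or 24 nt in irradiated L1 libraries, against 17.7% of nuclear bases. T was the last base of 36.4 to 38.3%, against 32.3% of nuclear bases, a smaller excess than that of the leading G. A was the second last base of 39.9% of 19-nt and 41.9% of 24-nt reads in WT replicate 1, also against 32.3% of nuclear bases. Both WT no UV libraries showed the same leading G, in 39.1% and 40.0% of 19-nt reads, and the same second last A, in 38.7% and 40.7%. TT as the first 2 bases was less frequent in WT replicate 2 (3.84% at 19 nt, 3.14% at 24 nt) than in WT replicate 1 (7.67% and 5.93%), and it was 1.87 to 3.02% in WT no UV. WT replicate 2 thus lay between WT no UV and the other irradiated libraries in this feature.

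At 6 nt from the 3′ end WT no UV reads often held other pyrimidine pairs. TC stood there in 13.6% (19 nt) to 18.4% (24 nt) of reads in replicate 1 and in 17.8% to 24.1% in replicate 2, against 2.23 to 6.96% in the irradiated classes and 6.21% of nuclear dinucleotides. The highest value was 25.5%, at 23 nt in replicate 2, against 18.996% for TT there, and TC also exceeded TT at 20, 22 and 24 nt in that library. CC stood there in 2.78 to 4.36% of WT no UV reads and in 0.45 to 1.35% of irradiated reads, against 3.35% of nuclear dinucleotides. Mitochondrial reads, which are not members, had TT at 6 nt in 23.4 to 25.6% of reads of the irradiated libraries, close to WT no UV and above the 16.1% of TT in the mitochondrial genome.

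Reads of different lengths more often shared a 3′ end than a 5′ end. Of the positions of 19 to 23 nt, 17.7% in WT replicate 1 had the same 3′ end as a position 1 nt longer, and 13.8% the same 5′ end. The excess on the 3′ side was 3.96 and 3.10 percentage points in WT, 4.02 and 4.42 for csb-1, 4.15 and 0.565 in mixed-stage xpc-1, and 0.0560 and 0.0270 in WT no UV. It was present in 6 of 6 irradiated libraries, with a mean of 3.37 ± 1.44 percentage points (SD, n = 6), p = 0.03125 in the exact two-sided sign-flip permutation test and 0.0625 after adjustment. Sharing rises with depth. With each library thinned to 143716 reads, the excess was 0.0735 to 0.565 percentage points with a mean of 0.184, in 6 of 6 libraries. The 0.565 belonged to mixed-stage xpc-1 replicate 2, for which this is the full depth, and the other libraries had at most 0.182. The irradiated library with the lowest excess at full depth thus had the highest at equal depth. In WT replicate 1, 12335 3′ ends carried all 6 lengths, as in the gmps-1 site, and 620 5′ ends did. The same counts were 980 and 18 in WT replicate 2, 7406 and 280 and 19622 and 814 for csb-1, and 12245 and 702 in mixed-stage xpc-1 replicate 1. Mixed-stage xpc-1 replicate 2 had 1 and 0, and both WT no UV libraries had 0 and 0. The counts were not adjusted for depth. At most 0.371% of the distinct 3′ ends of a library carried all 6 lengths (mixed-stage xpc-1 replicate 1).

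Copies, the number of identical sequences merged into 1 distinct read, varied more between libraries than between lengths. In 19-nt reads the mean was 1.76 and 18.5 copies in WT, 1.54 and 3.45 for csb-1, and 3.28 and 1.26 in mixed-stage xpc-1. In 24-nt reads it was 1.94 and 19.2, 1.64 and 3.17, and 2.99 and 1.21 copies. WT replicate 2 stood apart, with a median of 18 copies and no read with fewer than 2. The share of reads with more than 1 copy differed between 24 and 19 nt by +3.07 and 0 percentage points in WT, +1.76 and -4.95 for csb-1, and -5.30 and -3.53 in mixed-stage xpc-1. The 0 of WT replicate 2 was fixed beforehand, since 100% of its reads had more than 1 copy at both lengths. The direction was not shared, and the mean of -1.49 ± 3.58 percentage points (SD, n = 6) did not pass the test (exact two-sided sign-flip permutation p = 0.3125, adjusted 0.375). This mean and test include the fixed 0, and without WT replicate 2 the mean was -1.79 percentage points.

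Among all kept reads of WT no UV the shortest class carried the most copies. The mean was 1.89 and 1.74 copies at 19 nt and 1.27 and 1.25 at 24 nt, and the share of reads with more than 1 copy differed between 24 and 19 nt by -8.17 and -7.34 percentage points. One position held 261 of the 3694 copies of the 19-nt class in replicate 1 (7.07%) and 218 of the 3926 in replicate 2, of which 217 (5.53%) belonged to 1 distinct read. Of the 19-nt positions of WT no UV replicate 1, 36 of 1915 (1.88%) were also in replicate 2, against 3 of 1214 (0.247%) at 24 nt. Much of this excess lay in reads of lower mapping quality, whose 19-nt means were 2.83 and 2.63 copies. Among reads of quality 42 the means were 1.40 and 1.31 copies at 19 nt and 1.28 and 1.26 at 24 nt. The share of those with more than 1 copy was 13.7% and 9.95% at 19 nt and 11.1% and 8.98% at 24 nt, and its highest value was at 20 nt in replicate 1 (14.4%) and at 23 nt in replicate 2 (10.02%).

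That 19-nt position lies at chrIV:7233768-7233786 on the plus strand, outside annotated genes, and it was also the most copied 19-nt position over the 4 irradiated L1 libraries. Its copies were 50 and 1866 for WT, 33 and 137 for csb-1, and 493 and 2 in mixed-stage xpc-1. Its mapping quality was 23 in all 8 libraries, which leaves room for a mismatch to the genome. TT lies 5 nt but not 6 nt from its 3′ end. The reference sequence there resembles part of a common sequencing adaptor, so whether these copies came from worm DNA is uncertain and was not tested. They remain in the copy counts given for the 19-nt class, and the sequence is not printed.

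The most copied positions of 20 to 24 nt over the irradiated L1 libraries all had TT 6 nt from the 3′ end. A pair of them, whose most copied reads had mapping quality 42, is printed to show that placement at different lengths, with TT in capitals.
Most copied, 21 nt: gccccccTTccgaTTacacaa
Most copied, 24 nt: gcccgcgTTTgcccccTTactgct

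Copies here are summed over the distinct reads at a position, which numbered 5 at 21 nt and 10 at 24 nt in WT replicate 2. The 21-nt position lies at chrII:5338576-5338596 on the minus strand, in an intron of vhp-1 (WBGene00006923) and on its template strand. Its copies were 103 and 820 for WT, 32 and 107 for csb-1, and 52 and 4 in mixed-stage xpc-1. The 24-nt position lies at chrIV:11570227-11570250 on the minus strand, outside annotated genes, with 84 and 1262 copies for WT, 90 and 357 for csb-1, and 315 and 1 in mixed-stage xpc-1. WT replicate 2, the library with the most copies per read, led at both positions.

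The share of reads on the template strand of protein-coding genes differed more between the irradiated groups than between lengths. At 19 nt it was 55.7% and 56.6% for WT, 49.4% and 49.5% for csb-1, 86.1% and 85.1% in mixed-stage xpc-1, and 52.1% and 49.5% in WT no UV. At 24 nt it was 54.6% and 56.2% for WT, 49.0% and 49.3% for csb-1, 87.2% and 86.8% in mixed-stage xpc-1, and 49.7% and 48.1% in WT no UV. The groups of irradiated worms did not overlap at either length, whereas the WT no UV values had wide intervals (49.2 to 54.9% at 19 nt in replicate 1). From 19 to 24 nt the share changed by -1.09 and -0.38 percentage points in WT, -0.42 and -0.25 for csb-1, and +1.12 and +1.66 in mixed-stage xpc-1. Over the 6 irradiated libraries the mean change was 0.107 ± 1.05 percentage points (SD, n = 6), with an exact two-sided sign-flip permutation p of 0.84375, also after adjustment. WT and csb-1 overlapped in this change, with an exact two-sided permutation p of 0.667 and 0.788 after adjustment.

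The mean length of the reads differed most between strands in mixed-stage xpc-1. Template reads had a mean length of 21.38 and 21.04 nt in mixed-stage xpc-1, against 21.30 and 20.92 nt for nontemplate reads. In WT the means were 21.62 and 21.73 nt on the template strand and 21.64 and 21.73 nt on the nontemplate strand. For csb-1 they were 21.48 and 21.42 nt against 21.49 and 21.42 nt. WT no UV had 21.28 and 21.36 nt on the template strand against 21.31 and 21.39 nt on the nontemplate strand. The nontemplate reads of mixed-stage xpc-1 also differed in the position of the TT. TT stood at 6 nt in 41.2% and 36.01% of their 19-nt reads and in 44.9% and 38.0% of their 24-nt reads, against 45.7% and 45.7%, and 47.8% and 46.5%, on the template strand. In the WT replicates the nontemplate share was 48.6% and 50.3% at 19 nt and 52.1% and 53.5% at 24 nt, against 47.2% and 48.6%, and 50.8% and 51.8%, on the template strand. For csb-1 it was 48.1% and 47.8% at 19 nt and 52.5% and 50.4% at 24 nt, against 47.0% and 46.7%, and 51.3% and 49.3%. Nontemplate reads of mixed-stage xpc-1 thus had TT at 6 nt less often than template reads at both of these lengths. The reverse held in both WT and both csb-1 libraries. The difference was not tested.

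The share of reads in any annotated gene was similar at 19 and 24 nt. It was 63.6% and 65.1% at 19 nt and 63.4% and 63.9% at 24 nt for WT, and 63.2% and 64.0% against 62.3% and 63.3% for csb-1. In mixed-stage xpc-1 it was 78.8% and 76.5% at 19 nt and 78.4% and 77.7% at 24 nt. The share was lower at 24 nt in 5 of 6 irradiated libraries, with a mean of -0.379 ± 0.847 percentage points (SD, n = 6), exact two-sided sign-flip permutation p = 0.3125, adjusted 0.375. In WT replicate 1 the share in exons was 34.6% at 19 nt and 32.8% at 24 nt, and that in introns 29.02% and 30.6%. Exon shares went from 36.5% to 33.9% in WT replicate 2 and from 34.4% to 32.4% and 33.5% to 31.6% for csb-1, whereas they were 46.9% and 46.3%, and 48.5% and 50.03%, in mixed-stage xpc-1.

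The base composition and the mapping quality moved with length beside these values. GC content went from 38.8% at 19 nt to 37.6% at 24 nt in WT replicate 1 and from 40.3% to 39.03% in replicate 2, and from 38.1% to 37.7% and 35.99% to 35.7% for csb-1. In mixed-stage xpc-1 it was higher at 24 nt, at 37.3% and 37.99% in replicate 1 and 40.2% and 41.6% in replicate 2. Reads left out for a mapping quality of 20 or less were 7.33% of 19-nt and 5.28% of 24-nt reads in WT replicate 1, and 17.7% and 13.3% in WT no UV replicate 1. The part of GC content in the differences between lengths was not tested. Among reads of mapping quality 42 the slope was 0.871 nt per nt and the excess of shared 3′ ends 3.49 percentage points, close to the values for all kept reads, whereas the mean change in template share turned to -0.181 percentage points.

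Between genes the length of the reads varied little. In 435 protein-coding genes with at least 500 kept reads in each of the 4 irradiated L1 libraries, the mean read length of a gene lay between 21.52 and 21.70 nt in WT replicate 1 (5th and 95th percentile) and between 21.34 and 21.53 nt in csb-1 replicate 2. Across these genes the mean lengths had a Pearson r of 0.317 between the WT replicates and 0.668 between the csb-1 replicates, and of 0.342 to 0.448 between a WT and a csb-1 library, as a description over genes that share their libraries. The WT replicates thus had the lowest value of the 6 pairs. The r values were not adjusted for depth. Of the 4 libraries, WT replicate 2 had the fewest kept reads (3252700) and csb-1 replicate 2 the most (13203914). The part of counting error in r was not tested. The range between the 5th and 95th percentile was 21.64 to 21.88 nt in WT replicate 2, above both csb-1 libraries (21.40 to 21.62 nt in replicate 1), whereas that of WT replicate 1 overlapped with both.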

How the data were processed

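The authors trimmed adaptors with cutadapt, discarded untrimmed reads, aligned the rest to ce11 with Bowtie2, and filtered them, keeping lengths of 19 to 24 nt, and deduplicated them; versions are not given in the sources used here. The deposited files give each distinct read's positions (other), a name and a score, the mapping quality from the authors' alignment. The name ends in a number taken as its copies, since in all 8 files names run by rank and this number never rises with rank. The reads' own bases are not in these files, so dinucleotides were read from the WBcel235 genome. Genes came from Ensembl release 115, and a read was placed by its midpoint.

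Kept reads (mapping quality over 20, nuclear) were counted once each. Template shares used protein-coding genes of one strand only. Python 3.11.15, numpy 2.4.6, pandas 2.3.3 and scipy 1.17.1 gave exact sign-flip tests over 6 irradiated libraries and exact permutation tests of WT against csb-1. The measures of TT placement and end sharing were tested on simulated reads. Alternatives changed the quality filter, the counting unit, the definition of each measure and the libraries. The lengths, the measures and the rules for printed sequences were chosen with earlier results of these data known. Printed sequences are the most widely found 3′ end and the most copied positions with reads in every irradiated L1 library, off chromosome I. The most copied 19-nt position is described without its sequence.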

Additional observations from a re-analysis of the deposited data

Results flagged for a closer look

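The change in template share from 19 to 24 nt ran in opposite directions in the strains. It was negative in both WT libraries (mean -0.737 percentage points) and in both csb-1 libraries (mean -0.334), and positive in both mixed-stage xpc-1 libraries (mean 1.39). The differences of WT and of csb-1 from mixed-stage xpc-1 were not tested, and in mixed-stage xpc-1 the genotype cannot be told apart from the stage. Both WT no UV libraries changed by -2.39 and -1.43 percentage points, with intervals several points wide.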

How the results depend on the processing

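Each result was recomputed under the alternative settings. The change in template share over the 6 irradiated libraries changed sign: it was 0.107 percentage points for all kept reads, -0.181 for reads of mapping quality 42 (exact sign-flip permutation p = 0.5625), 0.390 with any mapping quality, 0.461 for 22 to 24 nt against 19 to 21 nt, -0.0961 without mixed-stage xpc-1 replicate 1 and -0.204 without replicate 2, and up to 0.347 without any other library. It did not pass the threshold under any setting tested, and the cause was not tested. No other result changed direction, and no setting with a test moved a result across the threshold. The difference in TT at 6 nt was 1.09 percentage points among reads with 1 TT, against 2.73 among all kept reads, and the excess of shared 3′ ends was 0.184 at one depth, against 3.37. Leaving out 1 library gave 2.43 to 3.07 percentage points for TT at 6 nt, 0.8501 to 0.875 for the slope, 3.16 to 3.93 for end sharing, -2.40 to -0.728 for copies, -0.695 to -0.214 for the genic share and 0.168 to 0.277 nt for the difference in mean length between WT and csb-1. With the replicate number as a block (replicate block), that difference remained 0.223 nt with a paired exact p of 0.5, the smallest that 2 pairs allow. The deviations of same-numbered libraries had a correlation of -0.920 over the 6 length shares, and with crossed numbers (an alternative added once the data had been seen) the paired p was also 0.5. Mean copies in place of the share of reads with more than 1 copy, also chosen afterwards, gave -0.01 as the log2 ratio of 24 to 19 nt. The design limits every adjusted p: 6 libraries allow 0.03125 before adjustment, and 2 against 2 allow 0.333. Depth limits the WT no UV classes to 1225 to 2301 reads each.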

Other observations

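Some positions of the WT no UV reads recurred in irradiated worms. Of the 19-nt positions of WT no UV replicate 1, 8.09% recurred among WT replicate 1 reads and 12.6% among those of csb-1 replicate 2, against 11.5% and 12.4% of the 24-nt positions. For WT no UV replicate 2 these shares were 7.44% and 10.8% at 19 nt, and 8.78% and 9.20% at 24 nt. In mixed-stage xpc-1 replicate 2, the irradiated library with the fewest kept reads, 0.574% of the 19-nt positions of WT no UV replicate 1 recurred. The shares were not adjusted for depth, and the share that recurs by chance was not computed. The base that follows the 3′ end on the genome was T for 44.2% and 47.5% of the 19-nt reads of WT no UV and for 35.3% and 35.6% of the 24-nt reads, against 28.5 to 33.8% (19 nt) and 27.04 to 31.0% (24 nt) in the irradiated libraries. In WT replicate 2, kept reads of 24 nt with a mapping quality under 42 had a mean of 6.28 copies and those of quality 42 had 22.4, whereas in WT replicate 1 the means were 1.56 and 1.96.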
